A study of Nomascus leucogenys with 9 samples.

Results

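The genes described here encode CTCF, the cohesin ring and the proteins that load it onto DNA or take it off. They were chosen as 10 human Ensembl gene identifiers, for CTCF, SMC1A, SMC3, RAD21, STAG1, STAG2, NIPBL, WAPL, PDS5A and PDS5B. All 10 were among the 15356 rows of the normalized expression table, and 0 were absent. The samples were lymphoblastoid lines, that is B lymphocytes made to grow in culture by infection with Epstein-Barr virus, of the gibbon Nomascus leucogenys, the northern white-cheeked gibbon. The 9 lines stem from 9 animals and formed 1 group, with no treatment, age or sex in the labels. They are called here by number, as Asia (line 1), Bobby (line 2), China (line 3), Khao (line 4), Melouprey (line 5), Nancy (line 6), Phyllis (line 7), Ricky (line 8) and Vok (line 9). Animal, culture and viral transformation cannot be told apart, since each line is 1 of each. The study asked how LAVA, a retrotransposon of gibbons, has been taken over as regulatory sequence, but no LAVA insertion was analysed here.

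Cohesin is a ring built from SMC1A and SMC3, closed by RAD21 and completed by either STAG1 or STAG2. It holds sister chromatids together after replication and extrudes DNA loops, which stop where cohesin meets CTCF, a zinc-finger protein bound to its motif. NIPBL loads cohesin and drives extrusion, WAPL releases it, and PDS5A and PDS5B bind RAD21 and act in release, in pausing and in the maintenance of cohesion. Gibbon genomes carry many evolutionary chromosome rearrangements, and loop boundaries are often studied at their breakpoints.

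Levels are the log2 values that the authors deposited, after scaling and transformation of their own. Parts per 1000000 (ppm) are a row's share of the sum of 2 to the power of each value in a line. The sequencing depth is unknown, so no counting error can be given. No correction for gene length is stated for the table, so levels were compared between lines and not between genes. Each line was measured in 1 library, so the order of neighbouring lines within a gene could not be tested against a replicate error. B cell identity was not checked by marker genes, because the table holds identifiers without symbols and no table of names matched them. In the whole table line 1 departed most from the others, with an SD of 0.53 log2 units around the row medians, against 0.22 to 0.42 in the other lines. The SD of each gene or difference that had line 1 as its highest or lowest line is given with and without it.

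Most of the 10 genes differed little between animals, with SMC1A, SMC3 and NIPBL as the members with the widest ranges. The highest line exceeded the lowest at least 2-fold in 0 of the 10 genes, though SMC1A came near with 1.93-fold. Of the 12590 rows averaging 1 ppm or more, 26.4% spanned that much. Of the 2644 rows with a mean level between those of STAG1 and RAD21 (81.3 and 454.0 ppm), 19.0% did. The median SD of the 10 genes was 0.13 log2 units, against 0.22 over all 12590 rows and 0.20 over the rows of like level. SMC1A and NIPBL went the other way, with SDs above those of 80.6% and 63.2% of the rows of like level. In 6 of the 10 genes the full range was under 0.5 log2 units, as it was in 28.2% of all rows and 34.3% of the rows of like level. These are descriptions of the lines, with no test.

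**Figure D1:**
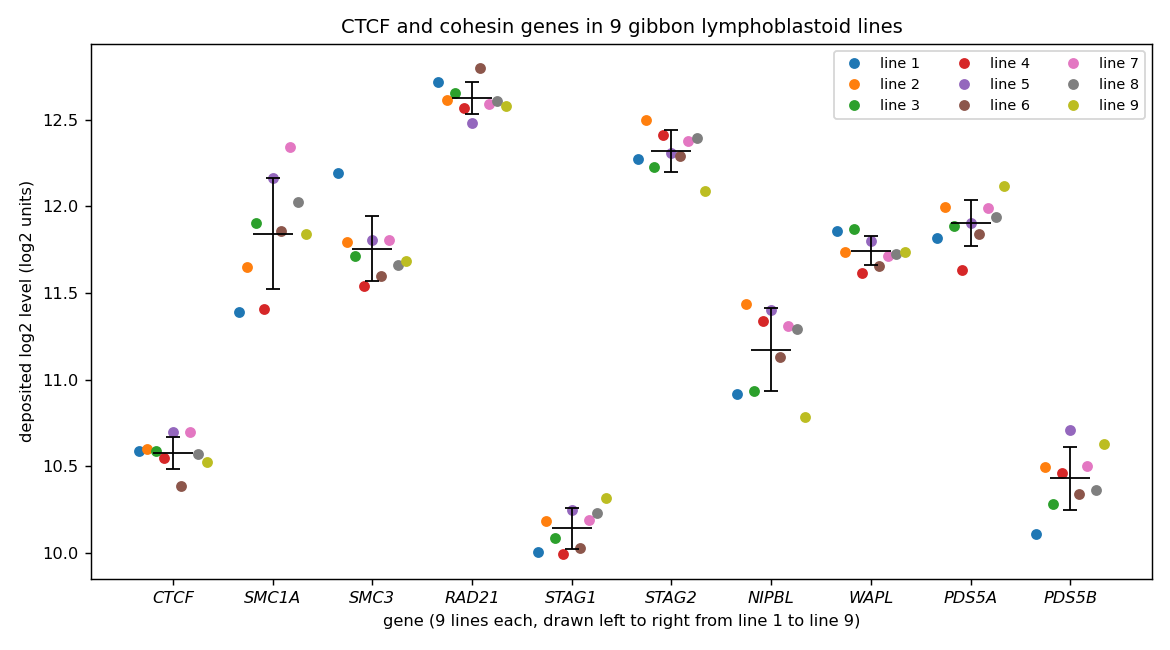
Deposited log2 level (vertical axis) of each gene in each of the 9 lines (coloured points), with the mean and SD over the lines (black bars). SMC1A spreads from 11.39 to 12.34, while CTCF, RAD21 and WAPL stay within 0.32 log2 units. No correction for length is stated, so differences in height between genes are not read.

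CTCF (ENSG00000102974), the factor that anchors loops, was among the steadiest. Its lowest level was 10.39 log2 units in line 6, its median 10.59 and its highest 10.70 in line 7, a 1.24-fold range (mean 10.58 ± 0.093, SD, n = 9). Line 6 lay below the other 8 lines, which ran from 10.52 to 10.70. Only 4.19% of all rows kept had a smaller SD. In linear terms CTCF made up 110 ± 7.06 ppm (SD, n = 9).

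The core of the ring was uneven. SMC1A (ENSG00000072501), an ATPase arm of the ring, ran from 11.39 log2 units in line 1 through a median of 11.86 to 12.34 in line 7 (mean 11.84 ± 0.32, SD, n = 9). That 1.93-fold range was the widest of the 10 genes, and 72.8% of all rows had a smaller SD. Without line 1 the SD of SMC1A was 0.29. Lines 1 (11.39) and 4 (11.41) were low, line 2 was at 11.65, and lines 5 (12.17) and 7 (12.34) were high.

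SMC3 (ENSG00000108055), the partner arm, was high in line 1 only. Its level there was 12.19 log2 units, against 11.54 (line 4) to 11.81 (line 5) among the remaining 8 (median 11.71, mean 11.76 ± 0.19, SD, n = 9). By Dixon's gap criterion for 9 values line 1 was outlying in SMC3, with a gap of 0.59 of the whole range. SMC3 was the single gene of the 10 with an outlying line, and 10.1% of all rows had one. Without line 1 the SD of SMC3 was 0.099. The line with the most SMC3 was thus the line with the least SMC1A.

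RAD21 (ENSG00000164754), the kleisin that closes the ring, stayed within a 1.24-fold range. It ran from 12.48 log2 units in line 5 through a median of 12.61 to 12.80 in line 6 (mean 12.63 ± 0.091, SD, n = 9). Line 1 followed line 6 with 12.72, and 3.65% of all rows had a smaller SD. Line 6 therefore had the lowest CTCF and the highest RAD21 level.

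The STAG subunits, which occupy the same place in the ring, had like spreads. STAG1 (ENSG00000118007) ran from 9.99 log2 units in line 4 through a median of 10.19 to 10.32 in line 9 (mean 10.14 ± 0.12, SD, n = 9). Lines 1 (10.01), 4 (9.99) and 6 (10.03) were lowest. STAG2 (ENSG00000101972) ran from 12.09 in line 9 through a median of 12.31 to 12.50 in line 2 (mean 12.32 ± 0.12, SD, n = 9). Line 9 held the highest STAG1 and the lowest STAG2 level.

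NIPBL (ENSG00000164190), the loader, divided the lines more than its opponent did. It was lowest in line 9 (10.79 log2 units), line 1 (10.92) and line 3 (10.93). Line 6 stood at 11.13, and lines 2, 4, 5, 7 and 8 lay between 11.29 and 11.44 (median 11.29, mean 11.17 ± 0.24, SD, n = 9). The full range was 1.57-fold, and 55.7% of all rows had a smaller SD.

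WAPL (ENSG00000062650), the releasing factor, had the narrowest range of the 10 genes. It ran from 11.62 log2 units in line 4 through a median of 11.73 to 11.87 in line 3, a 1.19-fold range (mean 11.75 ± 0.085, SD, n = 9). Of all rows, 2.52% had a smaller SD.

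The PDS5 paralogs ranged moderately. PDS5A (ENSG00000121892) ran from 11.64 log2 units in line 4 through a median of 11.91 to 12.12 in line 9 (mean 11.90 ± 0.14, SD, n = 9). PDS5B (ENSG00000083642) ran from 10.11 in line 1 through a median of 10.46 to 10.71 in line 5 (mean 10.43 ± 0.18, SD, n = 9). Without line 1 the SD of PDS5B was 0.15. Line 9 was high in both paralogs, at 12.12 and 10.63, whereas line 1 was lowest in PDS5B and not in PDS5A (11.82).

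**Figure D2:**
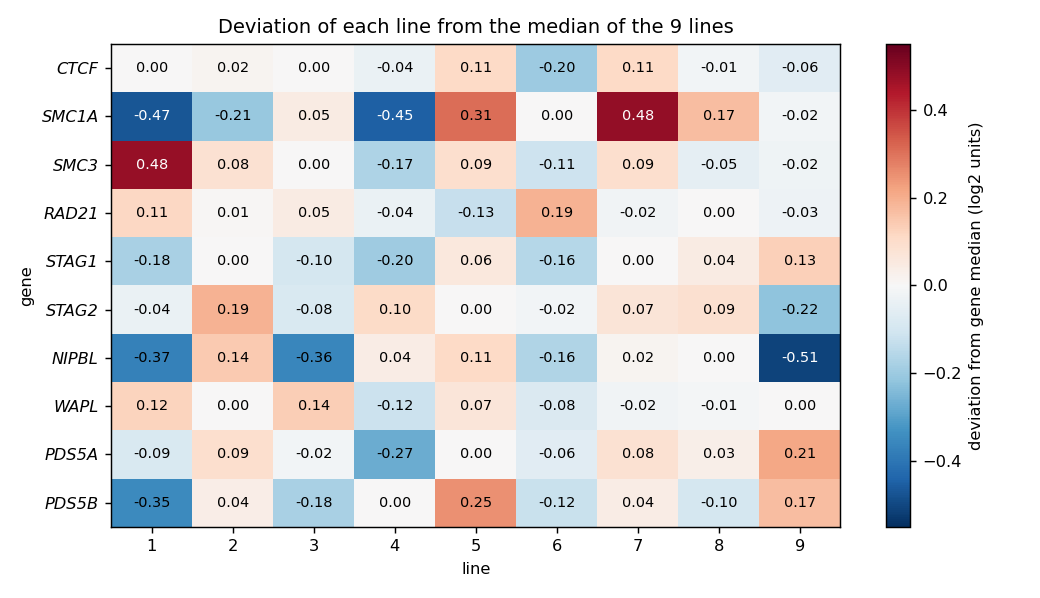
Deviation of each line (columns) from the median of the 9 lines for each gene (rows), in log2 units, red above and blue below. Line 1 has SMC3 at 0.48 beside SMC1A at -0.47, and NIPBL is low in lines 1, 3 and 9.

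No line was high or low in all 10 genes. Line 6 was below the median of the lines in 8 genes and above it in 1. Line 4 was below in 7 and was the lowest line in 4 of the 10 genes (SMC3, STAG1, WAPL and PDS5A). Line 7 was above in 8 genes, and lines 2 and 5 in 7 each. The shares of all rows above, below or lowest in each line are not given, so these counts are not set apart from the table. The median deviation over the 10 genes ran from -0.097 log2 units in line 6 to 0.081 in line 5. Over all 12590 rows the median deviation of a line lay between 0.00 and 0.025. Line 8 was nearest to the medians, with no deviation above 0.17.

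**Figure D3:**
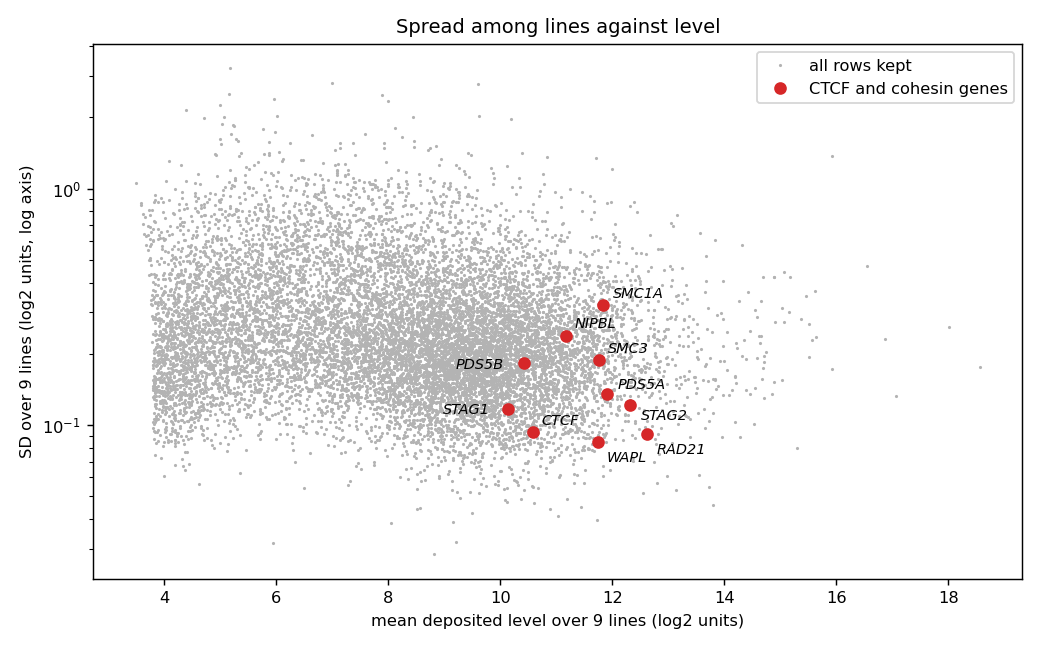
SD over the 9 lines (vertical log axis, log2 units) against mean deposited level (log2 units) for all 12590 rows kept (grey) and the 10 genes (red, named). WAPL, RAD21 and CTCF lie at the lower edge of the cloud at their level, with SDs of 0.085 to 0.093, and SMC1A lies above most rows with 0.32.

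Differences between partners within a line drop any offset that a whole library shares. Because no correction for length is stated, only the variation of these differences over the lines is read. SMC1A minus SMC3 was negative in line 1 (-0.80 log2 units), line 2 (-0.14) and line 4 (-0.13). It lay between 0.16 and 0.54 in the remaining 6 lines (mean 0.089 ± 0.40, SD, n = 9). The span was 2.53-fold, wider than that of either gene. Without line 1 the SD was 0.24.

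The kleisin RAD21 was also set against each arm. RAD21 minus SMC3 ran from 0.53 log2 units in line 1 to 1.20 in line 6 (SD 0.20, n = 9), with an SD of 0.16 without line 1. RAD21 minus SMC1A ran from 0.25 in line 7 to 1.33 in line 1 (SD 0.36, n = 9), with an SD of 0.32 without line 1. These differences were added after the values had been seen.

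NIPBL minus WAPL left a gap between 3 lines and the other 6. Lines 1 and 3 stood at -0.94 log2 units and line 9 at -0.95. The other lines lay between -0.53 (line 6) and -0.28 (line 4), and the SD over all 9 was 0.29. The loader was therefore low relative to the releasing factor in lines 1, 3 and 9, by at least 0.41 log2 units against the nearest other line.

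STAG2 minus STAG1 was lowest in line 9, at 1.77 log2 units, against 2.06 (line 5) to 2.42 (line 4) elsewhere (SD 0.19, n = 9). Without line 9 its SD was 0.11. PDS5A minus PDS5B was lowest in lines 4 (1.18) and 5 (1.20) and lay between 1.49 and 1.71 elsewhere (SD 0.18, n = 9). Its highest value was in line 1, without which the SD was 0.16.

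**Figure D4:**
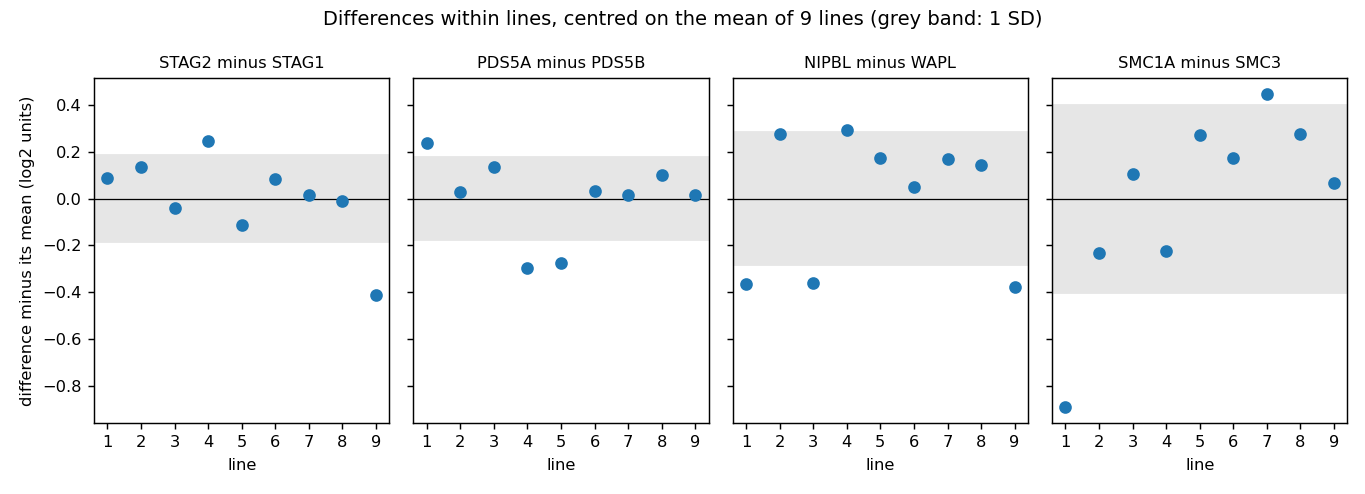
Difference between paired factors within each line, minus its mean over the 9 lines (vertical axis, log2 units), with a grey band of 1 SD. Line 1 falls below the band in SMC1A minus SMC3, line 9 in STAG2 minus STAG1, and lines 1, 3 and 9 in NIPBL minus WAPL.

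Whether the genes varied together over the lines was asked with limma. For each of the 10 genes, every other row kept was fitted against that gene's level, with Benjamini-Hochberg adjustment over all of those rows. A pair was called when both directions had an adjusted p under 0.05. limma called 0 of the 45 pairs, and 2 pairs had an unadjusted p under 0.05 in both directions. The share of all pairs of rows with such a p in both directions is not given. The smallest adjusted p of a member in any of these fits was 0.14 (limma). Pearson's r was positive in 24 of the 45 pairs and negative in 21, with a median of 0.053.

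Over the whole table the same fits called 0% of rows against CTCF, SMC1A, SMC3, RAD21, STAG2, WAPL and PDS5A. They called 5 rows against STAG1 (0.0397%), 21 against NIPBL (0.167%) and 212 against PDS5B (1.68%). With no adjustment, between 7.44% (SMC1A) and 24.5% (PDS5B) of rows had p under 0.05. These counts moved with the lines included, and each such fit has 1 line fewer. Leaving out a line gave 0 to 291 rows for PDS5B, with at most 5 without line 1, 2, 3, 5, 7 or 9, 64 without line 6 and 65 without line 8. For NIPBL it gave 452 rows without line 9, 52 without line 6 and at most 4 without any other line. For STAG1 it gave 270 rows without line 8, 46 without line 4, and 0 or 1 without lines 1, 2, 3, 5, 6, 7 and 9, and for RAD21 it gave 48 without line 5 and 7 without line 3. The 5 calls against STAG1 were also lost, with 0 left, under median centring, a pseudocount of 1 ppm, no filter and a prior without trend. Those against PDS5B numbered 68 with no filter, 124 with a prior without trend and 362 with a filter of 10 ppm. Those against NIPBL numbered 12 with that filter.

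In 6 of the 45 pairs Pearson's r had an exact permutation p under 0.05 (two-sided, unadjusted, over the 9 lines). Unadjusted p-values this low were common in the table. By limma, 7.44% (against SMC1A) to 24.5% (against PDS5B) of all rows had an unadjusted p under 0.05. The share of all rows by the exact test is not given, so these 6 pairs are not set apart from other rows. They are given by their values, with 1 further pair that reached this p by Spearman's rho alone. NIPBL and STAG2 had the closest relation of the 45. Pearson's r was 0.88 (exact permutation p = 0.00073) and Spearman's rho 0.87 (exact permutation p = 0.0045, n = 9). Lines 1, 3 and 9, the lowest in NIPBL, were also the lowest in STAG2. Without lines 2 and 9, the farthest from the STAG2 median, r was 0.78. limma's adjusted p was 0.17 for NIPBL on STAG2 and 0.22 for STAG2 on NIPBL.

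STAG1, the other STAG subunit, had its highest r with PDS5A. Whether the STAG subunits differ in the genes they vary with was not tested. Pearson's r was 0.86 (exact permutation p = 0.0016) and rho 0.83 (exact permutation p = 0.0083, n = 9), with r = 0.79 without lines 1 and 4. limma's adjusted p was 0.14 for PDS5A on STAG1 and 0.33 in the other direction. STAG1 and PDS5B gave r = 0.71 (exact permutation p = 0.032) and rho = 0.72 (exact permutation p = 0.037, n = 9), with r = 0.76 without lines 1 and 4. limma's adjusted p was 0.20 and 0.23. STAG1 and STAG2 themselves had r = -0.22 (exact permutation p = 0.58) and rho = -0.20 (exact permutation p = 0.61, n = 9), with r = -0.19 without lines 1 and 4, the farthest from the STAG1 median. Leaving out line 9 turned the sign, to r = 0.33.

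RAD21 had a negative r with 8 of the other 9 genes, lowest with PDS5B and CTCF and only -0.0064 with WAPL. The share of all rows with a negative r to RAD21 is not given. With PDS5B r was -0.77 (exact permutation p = 0.015) and rho -0.82 (exact permutation p = 0.011, n = 9), and r was -0.90 without lines 5 and 6. limma's adjusted p was 0.21 and 0.25. With CTCF r was -0.72 (exact permutation p = 0.031), but rho was -0.27 (exact permutation p = 0.49, n = 9), and r was -0.44 without lines 6 and 7. That relation rested on line 6, without which r was -0.39. limma's adjusted p was 0.74 and 0.40.

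SMC3 and WAPL gave r = 0.70 (exact permutation p = 0.028) and rho = 0.67 (exact permutation p = 0.059, n = 9). Without lines 1 and 4 r was 0.38, so this relation rested on those lines. limma's adjusted p was 0.63 and 0.58. CTCF and SMC3 had rho = 0.73 (exact permutation p = 0.031) but r = 0.41 (exact permutation p = 0.25, n = 9). Leaving out line 1, which is high in SMC3, gave r = 0.76, and leaving out lines 6 and 7, the farthest from the CTCF median, gave r = 0.29. limma's adjusted p was 0.82 and 0.81 for this pair. The arms of the ring, SMC1A and SMC3, gave r = -0.20 (exact permutation p = 0.62) and rho = 0.13 (exact permutation p = 0.74, n = 9). Without lines 1 and 7, the farthest from the SMC1A median, r was 0.53. Line 1 alone turned the sign, since r was 0.64 without it. NIPBL and WAPL had r = -0.43 (exact permutation p = 0.25) and rho = -0.37 (exact permutation p = 0.34, n = 9), with r = -0.38 without lines 1 and 9.

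**Figure D5:**
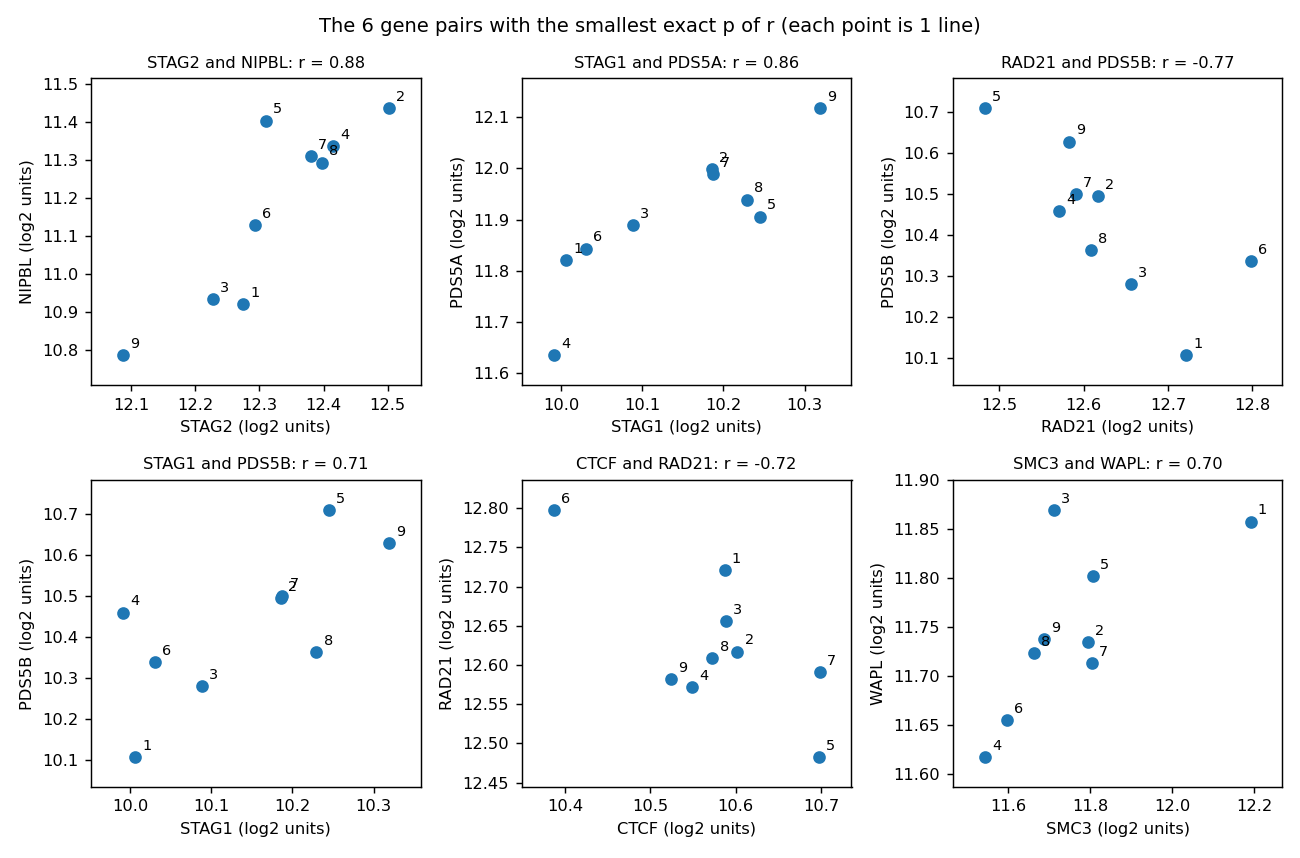
Levels of the 6 gene pairs whose r had an exact permutation p under 0.05, in log2 units on both axes, each point being 1 of the 9 lines with its number. STAG2 and NIPBL (r = 0.88) and STAG1 and PDS5A (r = 0.86) run along a diagonal, while in CTCF and RAD21 line 6 lies far from the other lines.

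Cohesin is needed in S phase, when cohesion is established, so the genes were set beside a level of 164 S-phase identifiers. That level is the mean deviation from the row medians, and it ran from -0.14 log2 units in line 4 to 0.15 in line 5. limma, with 12426 rows fitted against this level and 4.27% of them called, called 0 of the 10 genes after Benjamini-Hochberg adjustment. It gave 4 of the 10 genes an unadjusted p under 0.05, as it did 22.5% of all rows fitted. The smallest adjusted p of the 10 was 0.11 (limma), for STAG1.

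The genes with an unadjusted p under 0.05 were STAG1, PDS5A, PDS5B and SMC1A, in 10 relations computed. STAG1 had r = 0.87 (exact permutation p = 0.0044) and rho = 0.87 (exact permutation p = 0.0045, n = 9), with r = 0.78 without lines 5 and 9. PDS5A had r = 0.77 (exact permutation p = 0.0098) and rho = 0.77 (exact permutation p = 0.021, n = 9), with r = 0.83 without lines 5 and 9. PDS5B had r = 0.73 (exact permutation p = 0.025) and rho = 0.75 (exact permutation p = 0.025, n = 9), but r = 0.43 without lines 5 and 9, on which it rested. SMC1A had r = 0.71 (exact permutation p = 0.033) and rho = 0.55 (exact permutation p = 0.13, n = 9), with r = 0.76 without lines 5 and 9.

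CTCF, NIPBL, WAPL, SMC3, RAD21 and STAG2 did not reach that p. Their r ran from -0.65 (RAD21) to 0.62 (CTCF). Against the corresponding G2M level, limma called 0 of the 10 genes too, and 1.1% of all rows. It gave 1 gene an unadjusted p under 0.05, as it did 19.5% of all rows. PDS5A had r = 0.80 with the G2M level (exact permutation p = 0.0093, n = 9), and r = 0.59 without lines 7 and 9. STAG1 had r = 0.72 (exact permutation p = 0.029, n = 9), and r = 0.53 without those lines. These 2 relations were thus not particular to the S-phase level. The part of the S-phase or G2M level in the relations of STAG1 with PDS5A and PDS5B was not tested.

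Of all rows kept, those with the profiles closest to CTCF's were not among the other 9 genes. Those 9 were few among the 12589 rows ranked, so this says nothing on how CTCF and cohesin relate. Over the 9 lines, ENSG00000126001 had r = 0.98 with CTCF and ran from 10.01 to 10.55 log2 units. ENSG00000164576 had r = 0.94. The lowest values were r = -0.95 for ENSG00000267064, a row near the filter with a mean of 1.13 ppm, and r = -0.93 for ENSG00000164484. They are the extremes of 12589 rows, and limma called none of those rows against CTCF, with 945 at an unadjusted p under 0.05.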

How the data were processed

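RNA-seq values of 9 lymphoblastoid lines were read from 1 table of the whole series, with columns matched to samples by name and 0 per-sample columns left unused. The deposited log2 values had been scaled and log-transformed by the authors. The method and the base (base 2 was assumed) were not given in the sources used here. Trimmomatic, STAR, edgeR and DESeq2 are named, without versions or roles, per the submitters' processing notes. No build, annotation or strandedness is named by the sources. The values ran from 0.71 to 18.66, and the linear column sums from 13728358 to 14059842, so depth is unknown. If the authors' transformation shrank differences, every SD and range here is on that shrunken scale.

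Identifiers have the human Ensembl format. The names of the 10 genes come with their identifiers. None of the 15356 identifiers matched the RefSeq gene table of assembly Asia_NLE_v1 (0 matches, 33914 genes), so the other pathway lists (loading and acetylation, cleavage, meiotic cohesin, condensin, SMC5/6, CTCF partners) and the cell type markers gave no values, and other rows are named by identifier. The rule for named genes took all 10 members, members of those lists, and the rows nearest to CTCF in r, here at most 2 in each direction. The members and lists were chosen with earlier results of these data known.

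Rows averaging 1 ppm or more were kept (12590). limma 3.58.1 in R 4.3.3 used a robust prior that follows the level. It was tried on simulated independent rows, some of them made to follow CTCF closely. That trial cannot show whether weaker relations among real, correlated rows would be called. Exact permutation tests ran over all 362880 orders of the lines (numpy 2.4.6). S-phase and G2M identifiers came from the pair classifier of scran 1.30.0, as those that were the higher member in at least 90% of at least 20 pairs, without identifiers in more than 1 list. A planned adjustment over the 10 S-phase relations alone was replaced by limma's over all rows. Animals were separate, but each line is 1 library, so p-values refer to association over the lines, whatever the source of the differences between lines.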

Additional observations from a re-analysis of the deposited data

Results flagged for a closer look

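A total of 18 sets of 9 values were checked for an outlying line by Dixon's gap criterion, and chance flags about 1 in 20 such sets. In this table the criterion flagged 10.1% of all rows kept and 9.30% of the rows of like level, so the 2 sets named here are near the table's own rate. The sets share lines and genes, so they are not independent. SMC3 stood apart in line 1, at 12.19 log2 units against at most 11.81 elsewhere. The difference SMC1A minus SMC3 stood apart in the same line, at -0.80 log2 units against at least -0.14 elsewhere. It holds the same SMC3 value, and its gap of 0.494 of the range barely exceeds the bound for 9 values.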

How the results depend on the processing

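Planned settings were quantile normalization, median centring, a pseudocount of 1 ppm, no filter, a filter of 10 ppm, a prior without trend, and leaving out each line. Under all of them limma called 0 of the 45 pairs and 0 of the 10 genes against the S-phase level, and 0 against the G2M level. The smallest adjusted p of a pair, taking the larger of its directions, lay between 0.090 (without line 9) and 0.31. The r of the 6 pairs with an exact permutation p under 0.05 kept its sign wherever r was computed again. Those pairs were picked for a large r in these data, so a kept sign was likely beforehand. Of the other pairs printed, SMC1A with SMC3 turned to r = 0.64 without line 1. STAG1 with STAG2 turned to r = 0.33 without line 9. The median SD of the 10 genes lay between 0.11 and 0.14. Rows that spanned at least 2-fold numbered 2009 with a filter of 10 ppm, where fewer rows are counted. The calls against the 10 genes summed to 238 rows, to 91 with no filter, 387 with a filter of 10 ppm and 148 with a prior without trend, and to 1 to 456 when a line was left out. The cause was not tested. No paired analysis was possible because the labels hold a single group. Unknown depth leaves the part of counting error in each SD unmeasured.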
